A study of Mus musculus with 4 samples.

Results

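Cytotoxic lymphocytes kill through secretory granules that carry granzymes, a family of serine proteases, together with perforin, which forms pores in the target membrane. Serglycin, a proteoglycan, packs these proteins inside the granule until the granule fuses with the cell surface. Killing of this kind is best known from natural killer (NK) and CD8 T cells, but activated CD4 T cells and regulatory T (Treg) cells can make granzymes as well. Described here are 10 genes of this system, taken by symbol from a table of 34745 mouse genes: the granzyme genes Gzma, Gzmb, Gzmc, Gzmk and Gzmm, and the granule or granule-associated genes Prf1, Nkg7, Srgn, Ctsw and Lamp3. All 10 had a row in the table, and 9 had enough reads to be tested, while Lamp3 did not.

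RNA was sequenced from 4 cultures of naive CD4+ T cells of C57BL/6 mouse spleen, kept for 3 days under conditions that drive Treg differentiation. The 2 libraries numbered 22 and 24 carried the genotype Setd2-CD4 cre, and the 2 libraries numbered 13 and 15 were wild type. Setd2 encodes the methyltransferase that trimethylates lysine 36 of histone H3, and the Cd4 promoter that drives this Cre is active in thymocytes before the CD4 and CD8 lineages part. The labels give neither the mice's ages, nor the deleted exons, nor whether wild-type mice carried Cre, nor whether each library stands for its own animal. The p-values therefore refer to the spread among these 4 libraries, part or all of which may be technical. Library totals were 15594506 and 15653717 counts for Setd2-CD4 cre, against 16030869 and 14599957 counts for wild type. Setd2 itself measured 137 and 113 CPM (counts scaled to library size, edgeR) in Setd2-CD4 cre 22 and 24, against 137 and 146 CPM in wild type 13 and 15. That difference was within the spread (log2 fold change -0.17, edgeR adjusted p = 0.436), so the whole-gene count does not check the deletion, and group names are the labels' genotypes. The CD4 T cell markers Cd4, Cd3d, Cd3e, Cd3g, Cd5, Thy1, Trac and Trbc2 were all expressed, with summed levels of 3636 to 3872 CPM in Setd2-CD4 cre and 3942 to 4090 CPM in wild type, and edgeR called none of the 8 (1 at an unadjusted p below 0.05, 0 by DESeq2). Without Setd2-CD4 cre 24, 1 of them was higher and 3 were lower, in a fit that called 30.2% of all genes.

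Of the 9 genes tested, 3 were called higher (Gzma, Gzmc and Srgn), 1 lower (Nkg7) and 5 were not called. Over all 13279 genes tested, 10.1% were called at an adjusted p below 0.05, with 5.53% higher and 4.59% lower. The groups did not overlap for 6 of the 9 genes, which is near the 63.8% of all genes for which they did not. The median log2 fold change of the 9 genes was 0.09, against -0.0013 over all genes. Counts moved with the library left out, in these genes as in all genes. Without wild type 13 or without wild type 15, Gzma alone was called, in fits that called 2.33% and 1.37% of all genes. Without Setd2-CD4 cre 22 there were 3 higher and 1 lower, with 13.8% of all genes called. Without Setd2-CD4 cre 24 there were 3 higher and 3 lower (Nkg7, Ctsw and Gzmk), with 30.2% of all genes called.

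The 250 bases before the start sites of 5 of these genes are shown first: the 4 whose transcripts passed the test, and Gzmb, which lies beside Gzmc and did not. Sequences are from RefSeq (GRCm38.p6), 5′ to 3′ on the strand of the gene. Start sites are those of RefSeq and can differ from the deposited gene bounds. The Nkg7 window runs past the deposited gene start (43437073), so its GGTGTGA match lies inside the gene as deposited. The Gzmb window stops short of the deposited gene bound (56262260). Capitals mark matches on either strand to TGTGGT (bound by RUNX factors), GGTGTGA (T-box), TGANTCA (AP-1) and TTCNNNGAA (STAT), which did not overlap one another. The windows are chr13:113100982-113101231 (minus strand) for Gzma, chr14:56234658-56234907 (minus) for Gzmc, chr10:62527446-62527695 (minus) for the upstream of a pair of Srgn start sites, chr7:43436888-43437137 (plus) for Nkg7 and chr14:56262335-56262584 (minus) for Gzmb.
Gzma: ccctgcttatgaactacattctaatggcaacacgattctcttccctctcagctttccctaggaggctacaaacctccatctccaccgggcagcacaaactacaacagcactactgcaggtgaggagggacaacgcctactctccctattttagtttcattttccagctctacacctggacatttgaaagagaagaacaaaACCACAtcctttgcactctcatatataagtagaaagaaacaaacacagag
Gzmc: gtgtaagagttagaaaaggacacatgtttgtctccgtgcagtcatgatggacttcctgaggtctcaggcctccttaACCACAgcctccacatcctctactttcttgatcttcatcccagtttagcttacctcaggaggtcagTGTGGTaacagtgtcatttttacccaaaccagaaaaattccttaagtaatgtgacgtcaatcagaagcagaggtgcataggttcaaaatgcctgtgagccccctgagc
Srgn: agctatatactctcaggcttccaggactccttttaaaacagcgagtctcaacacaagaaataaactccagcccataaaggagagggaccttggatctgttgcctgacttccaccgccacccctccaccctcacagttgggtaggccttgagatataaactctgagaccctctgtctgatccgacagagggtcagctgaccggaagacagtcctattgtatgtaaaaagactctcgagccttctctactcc
Nkg7: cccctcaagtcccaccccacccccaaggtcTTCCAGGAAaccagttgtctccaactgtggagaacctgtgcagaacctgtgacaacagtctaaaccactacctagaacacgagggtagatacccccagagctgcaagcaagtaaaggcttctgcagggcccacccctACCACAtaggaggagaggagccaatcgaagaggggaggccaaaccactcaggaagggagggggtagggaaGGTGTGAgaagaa
Gzmb: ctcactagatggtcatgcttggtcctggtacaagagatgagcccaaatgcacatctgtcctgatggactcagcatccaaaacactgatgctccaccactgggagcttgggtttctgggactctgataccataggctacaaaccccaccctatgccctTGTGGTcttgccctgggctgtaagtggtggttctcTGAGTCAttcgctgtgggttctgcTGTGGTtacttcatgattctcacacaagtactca
RefSeq start sites were found for 9 of the 10 genes, 11 promoters in all. A TGTGGT match was present in 7 of the 11, where 14% of all 32851 promoters of this length held one. GGTGTGA was present in 3 of 11 (Nkg7, Gzmk and the downstream promoter of Gzmm) against 3.33% of all, TTCNNNGAA in 3 of 11 against 7.02%, and TGANTCA in 1 of 11 (Gzmb) against 6.75%. All 3 GGTGTGA matches lie inside the genes as deposited, as do the whole Gzmk and downstream Gzmm windows. Of the printed windows, Gzmc and Gzmb each held 2 TGTGGT matches, and Gzma and Nkg7 held 1. This Srgn window held no match to any of the 4 motifs, while the downstream Srgn promoter, not printed, held 1 TGTGGT match. A match describes letters in a window and is not evidence of binding.

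Gzma, which encodes granzyme A, a protease that cuts after basic residues, showed the greatest rise among these genes. It measured 112 and 159 CPM in Setd2-CD4 cre 22 and 24, against 34.0 and 29.6 CPM in wild type 13 and 15. Both Setd2-CD4 cre libraries lay far above both wild-type ones, with library 24 the highest. The means were 135 ± 33.5 CPM and 31.8 ± 3.13 CPM (SD, n = 2 each), a 4.26-fold rise (log2 fold change 2.09, SE 0.20, edgeR quasi-likelihood test, adjusted p = 0.0103). Gzma (ENSMUSG00000023132) lies on chromosome 13 at 113093825 to 113100979, minus strand, GRCm38. In all genes tested it ranked 32 by p-value and 162 by size of rise. It was the only one of the 9 tested genes called with each library left out in turn (log2 fold change 1.81 to 2.33, adjusted p = 0.00294 to 0.0105). These are bulk libraries, in which more cells that make a transcript and more transcript per cell cannot be told apart.

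Gzmb encodes granzyme B, the protease that cuts after aspartate and starts apoptosis in target cells. It measured 74.8 and 64.0 CPM in Setd2-CD4 cre, against 62.5 and 68.2 CPM in wild type. The groups overlapped, and the test did not call a difference (log2 fold change 0.09, adjusted p = 0.709). The 95% interval of the fold ran from 0.840 to 1.34, so a change as large as that of Gzma lies outside it.

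Gzmc, a granzyme gene found in rodents and transcribed from the cluster that also holds Gzmb, measured 18.1 and 12.4 CPM in Setd2-CD4 cre, against 6.74 and 5.97 CPM in wild type. The groups did not overlap, and library 22 was the highest, whereas for Gzma it was library 24. Gzmc (ENSMUSG00000079186, chromosome 14, 56231401 to 56234656, minus strand) rose 2.39-fold (log2 fold change 1.26, SE 0.25, adjusted p = 0.0308). The call was lost when wild type 13 was left out (adjusted p = 0.0746) or wild type 15 (adjusted p = 0.14). Of its 50-base sequences, 4.14% also occur in transcripts of Gzmd, Gzme or Gzmg, so a small share of its reads could be split with those genes. None of those 3 genes had more than 8 counts in any library.

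Gzmk encodes granzyme K, a relative of granzyme A with a like preference for basic residues, and lies near Gzma on chromosome 13. It measured 2.28 and 7.28 CPM in Setd2-CD4 cre 22 and 24, against 5.88 and 6.17 CPM in wild type. The Setd2-CD4 cre libraries stood on both sides of wild type, so the groups overlapped (log2 fold change -0.33, adjusted p = 0.676). Without library 24 the log2 fold change was -1.41 (adjusted p = 0.0218), and without library 22 it was 0.28. Gzmm, which encodes a granzyme that cuts after methionine or leucine, was near the limit of detection at 0.54 and 0.89 CPM in Setd2-CD4 cre and 1.65 and 0.34 CPM in wild type. These stood for 8 and 14 counts against 27 and 5 counts, and the groups overlapped (adjusted p = 0.693).

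**Figure D1:**
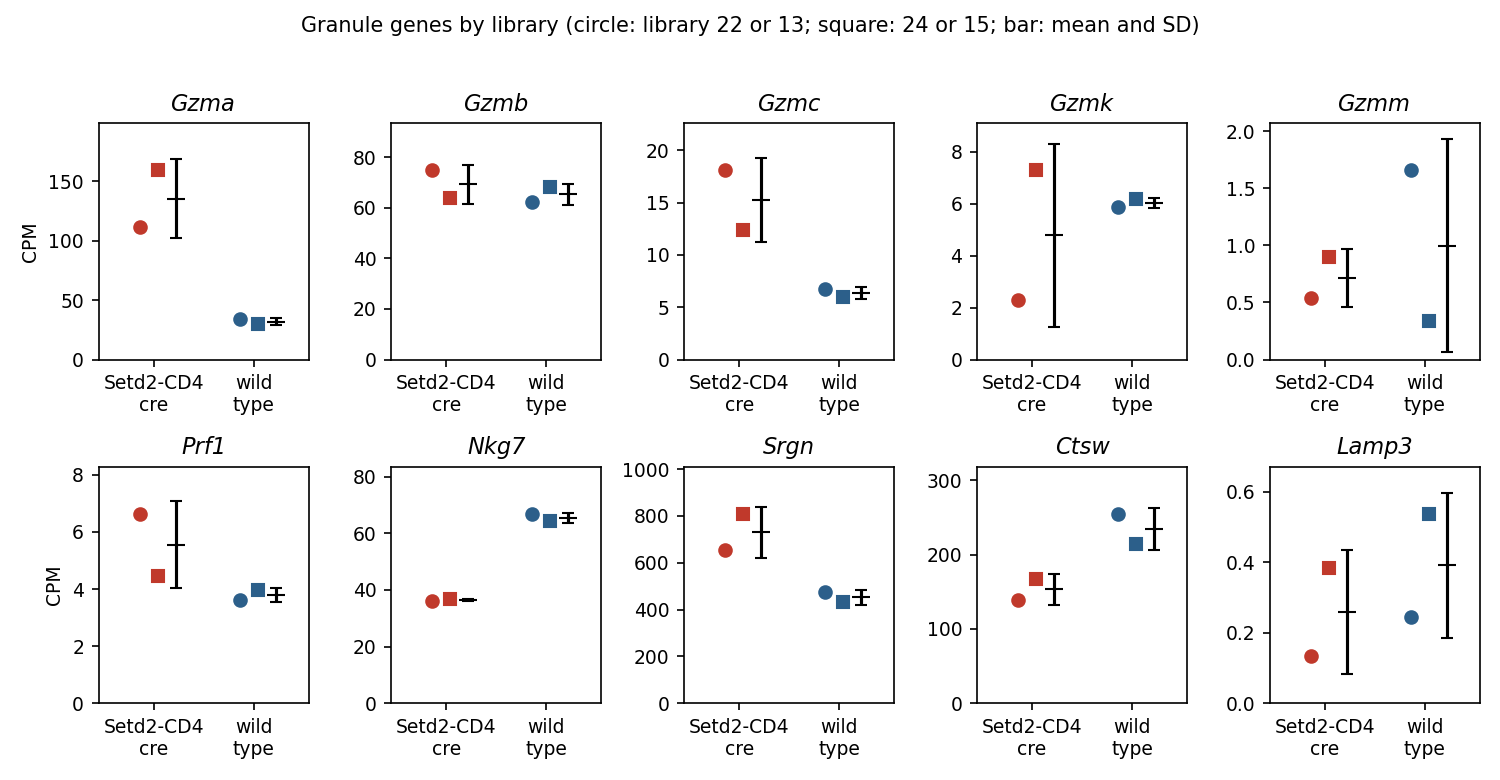
Scaled CPM (vertical axes, each starting at 0) of the 10 genes in Setd2-CD4 cre libraries 22 (red circle) and 24 (red square) and wild-type libraries 13 (blue circle) and 15 (blue square), with the mean and SD of each group (n = 2) in black. Gzma, Gzmc, Srgn and Prf1 lie higher and Nkg7 and Ctsw lie lower in both Setd2-CD4 cre libraries, while Gzmb, Gzmk, Gzmm and Lamp3 overlap. Of the genes that do not overlap, Prf1 and Ctsw were not called by edgeR.

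The makeup of the granzyme transcripts was set side by side in FPKM. FPKM is the deposited level per length of gene and per depth of library, and a comparison of genes on it depends on the lengths used. The 5 granzyme genes summed to 192 and 244 FPKM in Setd2-CD4 cre, against 95.3 and 93.1 FPKM in wild type. Gzma made up 63.4% and 74.5% of that sum in Setd2-CD4 cre, against 41.4% and 37.0% in wild type. Gzmb made up 26.3% and 18.5% in Setd2-CD4 cre and 47.1% and 52.8% in wild type, while its own FPKM overlapped between the groups. The ratio of Gzma to Gzmb FPKM was 2.41 and 4.02 in Setd2-CD4 cre, against 0.879 and 0.700 in wild type, a comparison within each library that scaling between libraries cannot alter. Gzma was thus the more abundant of the pair in both Setd2-CD4 cre libraries, and Gzmb in both wild-type libraries. The same order held with the longest coding GENCODE transcripts as lengths, where Gzma had 108 and 160 FPKM beside 49.9 and 44.6 for Gzmb in Setd2-CD4 cre, and 34.8 and 30.3 FPKM beside 44.3 and 48.5 in wild type. Gzmc gave 9.64% and 5.45% of the granzyme FPKM in Setd2-CD4 cre and 7.71% and 7.01% in wild type, where the groups overlapped.

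**Figure D2:**
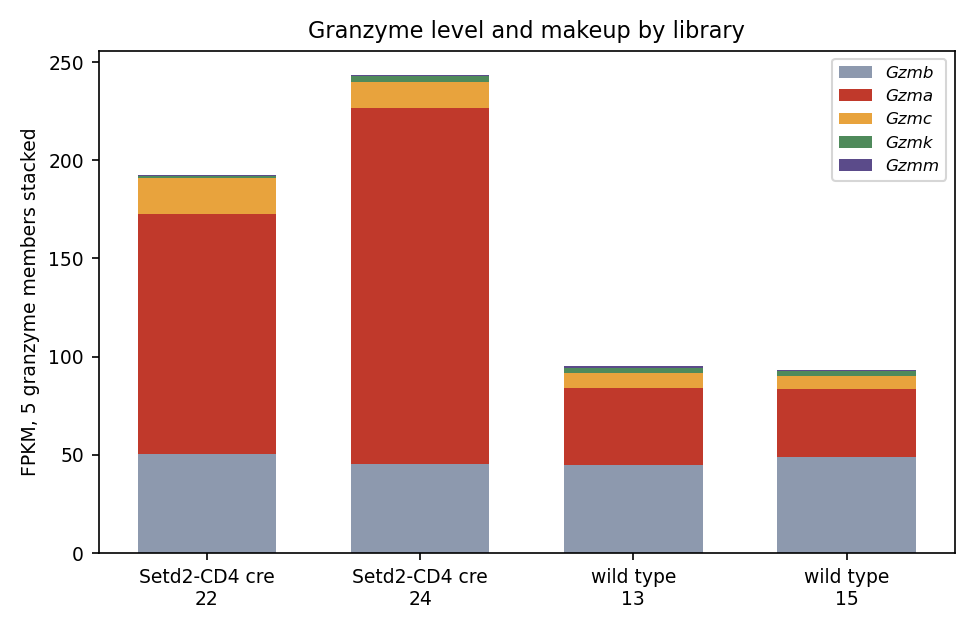
Summed FPKM of the 5 granzyme genes (vertical axis, from 0) in each library, stacked by gene, with the Setd2-CD4 cre libraries left of the wild-type ones. The Gzmb layer is of like height in all 4 libraries, and the Gzma layer is taller in both Setd2-CD4 cre libraries (122 and 181 FPKM, against 39.4 and 34.4 FPKM in wild type).

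Among the proteins that store and deliver granzymes, the genes went in different directions. Prf1, which encodes the pore former perforin, was low throughout, at 6.63 and 4.47 CPM in Setd2-CD4 cre and 3.62 and 3.96 CPM in wild type. Both Setd2-CD4 cre values were the higher ones, but the difference did not pass the test (log2 fold change 0.55, adjusted p = 0.25), and the interval of the fold ran from 0.897 to 2.39. In FPKM, Prf1 stood at 2.63 ± 0.646 in Setd2-CD4 cre and 1.88 ± 0.124 in wild type (SD, n = 2 each), below Gzmb in every library.

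Srgn, the gene of serglycin, measured 654 and 808 CPM in Setd2-CD4 cre, against 474 and 430 CPM in wild type. The groups did not overlap, and library 24 was again the highest, as it was for Gzma. Srgn (ENSMUSG00000020077, chromosome 10, 62493833 to 62527451, minus strand) rose 1.62-fold (log2 fold change 0.69, SE 0.14, adjusted p = 0.0323). The call was lost without wild type 13 (adjusted p = 0.117) and without wild type 15 (adjusted p = 0.227), while the log2 fold change ranged from 0.53 to 0.85 over the 4 leave-outs.

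Nkg7 encodes a granule membrane protein that cytotoxic cells need for degranulation. It measured 36.1 and 36.6 CPM in Setd2-CD4 cre, against 66.7 and 64.2 CPM in wild type. Replicates lay close together and the groups were well apart. Nkg7 (ENSMUSG00000004612, chromosome 7, 43437073 to 43438249, plus strand) fell, and was 1.80-fold lower in Setd2-CD4 cre (log2 fold change -0.85, SE 0.12, adjusted p = 0.0176). With 1 wild-type library left, the adjusted p was 0.0919 (without 13) and 0.0985 (without 15), although the log2 fold change stayed between -0.88 and -0.83.

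Ctsw encodes cathepsin W, a cysteine protease largely restricted to NK and cytotoxic T cells. It measured 138 and 168 CPM in Setd2-CD4 cre, against 254 and 215 CPM in wild type. The groups did not overlap, but the test narrowly missed the threshold (log2 fold change -0.62, SE 0.15, adjusted p = 0.0511). Ctsw passed under 5 of its 15 alternatives, among them DESeq2 (adjusted p = 0.00937). Of its exonic bases, 9 overlap Fibp on the other strand. Lamp3, whose product marks lysosomes of mature dendritic cells, had 2 and 6 counts in Setd2-CD4 cre and 4 and 8 counts in wild type, which is 0.134 and 0.383 CPM in Setd2-CD4 cre and 0.245 and 0.537 CPM in wild type. The groups overlapped, and 3 counts in a library correspond to 0.184 to 0.201 CPM.

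Srgn and Ctsw changed places in the order of levels. Per library, the ratio of Srgn to Ctsw FPKM was 1.496 and 1.525 in Setd2-CD4 cre, against 0.590 and 0.635 in wild type, with replicates close together. In Setd2-CD4 cre the order by mean FPKM was Srgn (184 ± 33.01), Gzma (152 ± 42.0), Ctsw (122 ± 20.2), Gzmb (47.8 ± 3.83), Nkg7 (22.3 ± 0.902), Gzmc (15.9 ± 3.73), Prf1, Gzmk, Gzmm and Lamp3. There Srgn and Gzma, Gzma and Ctsw, and Prf1 and Gzmk differed by less than the larger SD of the pair, taken here as their spread. The gap between Gzmk (2.12 ± 1.62) and Gzmm (0.403 ± 0.154) was only just larger than that. In wild type it was Ctsw (194 ± 22.7), Srgn (119 ± 7.88), Gzmb (47.0 ± 3.01), Nkg7 (41.7 ± 1.053), Gzma (36.9 ± 3.56), Gzmc (6.94 ± 0.58), Gzmk, Prf1, Gzmm and Lamp3 (SD, n = 2 each), where Gzmm and Lamp3 did not differ beyond their spread. The order depends on gene length. The deposited FPKM imply 3890 bases for Srgn, 1600 for Nkg7 and 2234 for Gzmk, where the longest coding GENCODE transcripts have 1727, 881 and 1304. With the latter lengths, an alternative chosen after seeing the data, Srgn averaged 415 FPKM in Setd2-CD4 cre and 267 in wild type, above Ctsw in both (121 and 193), Nkg7 averaged 40.5 and 75.8, and Gzmk 3.63 and 4.71.

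**Figure D3:**
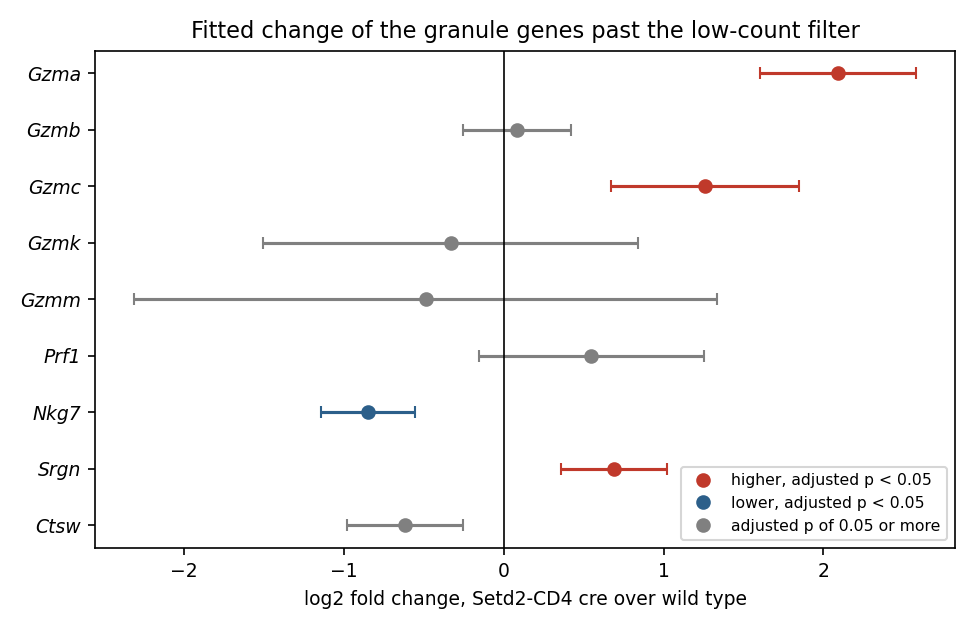
Fitted log2 fold change of Setd2-CD4 cre over wild type (horizontal axis) for the 9 tested genes, with 95% intervals from edgeR, 2 libraries a group. Intervals of Gzma, Gzmc and Srgn lie above 0 and those of Nkg7 and Ctsw below 0, while Ctsw did not pass the adjusted threshold.

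**Figure D4:**
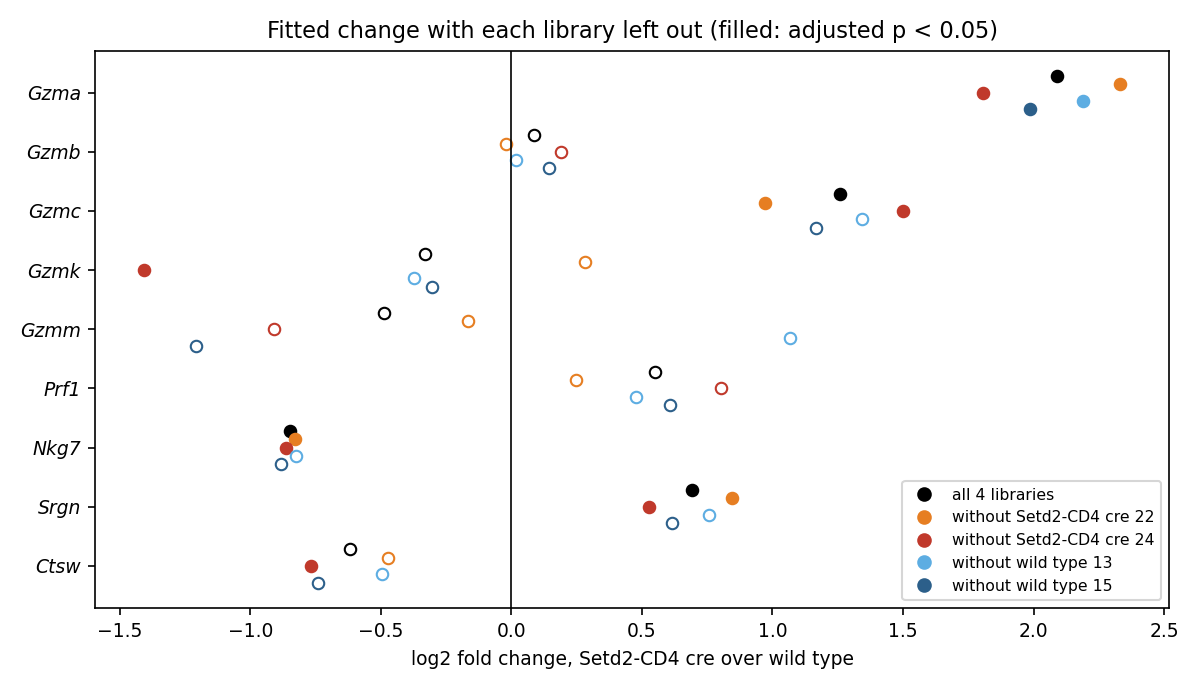
Fitted log2 fold change (horizontal axis) of each tested gene with all 4 libraries (black) and with each library left out in turn (colours), where filled points have an adjusted p below 0.05. Gzma is filled throughout, Gzmc, Nkg7 and Srgn are open without either wild-type library, and Gzmk, Gzmm and Gzmb change sign in 1 leave-out each.

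The Gzmb cluster on chromosome 14 holds further granzyme and mast cell protease genes. Of the 5 other granzyme genes there, Gzme, Gzmg and Gzmn had 0 counts in all 4 libraries, which allows up to 3 counts (0.184 to 0.201 CPM) in each. Gzmd had 8 and 4 counts in Setd2-CD4 cre and 1 and 4 counts in wild type, and Gzmf had 2 and 4 counts in Setd2-CD4 cre and 0 and 0 in wild type. Gzmc was therefore the one gene besides Gzmb in this granzyme group with more than 10 counts. At the other end of the cluster, Mcpt1, a mast cell protease gene named after its values were seen, had 41 and 57 counts in Setd2-CD4 cre, against 2 and 8 counts in wild type (log2 fold change 3.27, SE 0.60, adjusted p = 0.0276, and 0.076 without wild type 13). Its level stayed low, at 2.74 and 3.64 CPM in Setd2-CD4 cre and 0.123 and 0.537 CPM in wild type. Mcpt8 and Mcpt2 were not called (adjusted p = 0.115 and 0.234).

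Genes that activate or restrain granzymes showed 2 rises and no fall among 9 tested (median log2 fold change 0.40). Of all genes in that fit, 5.53% were higher and 4.59% lower. Serpinb6b, which encodes a serpin that inhibits granzyme A in mice, measured 273 and 181 CPM in Setd2-CD4 cre, against 72.3 and 69.9 CPM in wild type. It rose 3.19-fold (adjusted p = 0.0135) and stayed past the threshold with each library left out (adjusted p = 0.00188 to 0.0223). Serpinb6a, of the same family and also on chromosome 13, rose 2.33-fold (adjusted p = 0.0172, and 0.0661 without wild type 15). Of the 50-base sequences of Serpinb6a, 25.1% occur in transcripts of other genes, mostly Nqo2, 1110046J04Rik and Ripk1. Serpinb9, the inhibitor of granzyme B, measured 38.7 and 34.2 CPM in Setd2-CD4 cre and 37.6 and 39.3 CPM in wild type (adjusted p = 0.731). Serpinb9b, also on the list, had 4 and 5 counts in Setd2-CD4 cre, against 21 and 16 counts in wild type. Its log2 fold change of -1.98 was not called by edgeR (adjusted p = 0.0604). It passed as lower with limma on log2(FPKM + 0.1) (adjusted p = 0.0456). Ctsc, which encodes the peptidase that activates granzymes, had a fitted log2 value of 0.48 and Cst7, a cystatin that inhibits it, one of 0.40 (adjusted p = 0.0927 and 0.0806).

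The list of granule membrane and exocytosis genes gave 3 rises and 1 fall among 19 tested (median log2 fold change 0.03). Shares over all genes in that fit were 5.53% higher and 4.59% lower. Sytl2, a partner of Rab27 that docks granules at the membrane, measured 36.9 and 29.1 CPM in Setd2-CD4 cre, against 9.01 and 8.65 CPM in wild type, and rose 3.73-fold (adjusted p = 0.0106). Sytl3, of the same family, rose 2.46-fold (with 21.1% of its 50-base sequences also in Gm29719 or Gm29721), and Stx11, a syntaxin that granule release requires, rose 2.34-fold (adjusted p = 0.0165 each). Without wild type 15 the adjusted p of Sytl3 was 0.0514 and that of Stx11 0.062, and without wild type 13 that of Stx11 was 0.0501. Lamp1, the lysosomal protein known as CD107a that appears on degranulating cells, fell to 98.6 and 107 CPM in Setd2-CD4 cre, against 187 and 192 CPM in wild type (1.84-fold lower, adjusted p = 0.0165). Leaving out wild type 13 (adjusted p = 0.0756) or 15 (adjusted p = 0.114) ended the call. Without wild type 15, where 1.37% of all genes were called, the list gave 1 rise and no fall. Unc13d and Rab27a, which act in priming and docking, were not called (adjusted p = 0.263 and 0.757).

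Serglycin carries sulfated glycosaminoglycan chains, and of 16 tested genes for chondroitin-type chain synthesis 3 rose and 1 fell (median log2 fold change 0.06). The same fit called 5.53% of all genes higher and 4.59% lower. Csgalnact1, whose enzyme adds the residue that starts a chondroitin chain, measured 16.0 and 15.9 CPM in Setd2-CD4 cre, against 2.21 and 2.15 CPM in wild type. It rose 7.30-fold (log2 fold change 2.87, SE 0.21, adjusted p = 0.00947) and passed with each library left out. The chondroitin sulfotransferase gene Chst12 rose 2.18-fold and Ust, the uronyl sulfotransferase gene, 1.93-fold (adjusted p = 0.0135 and 0.0255). Leaving out wild type 15 ended the call for Chst12 (adjusted p = 0.075), and leaving out wild type 13 or 15 ended it for Ust (0.119 and 0.109). Chpf, a chondroitin polymerizing factor gene, fell to 5.35 and 8.30 CPM in Setd2-CD4 cre, against 24.8 and 22.9 CPM in wild type (3.49-fold lower, adjusted p = 0.016). Without wild type 13 the list held 2 rises and 1 fall, and without wild type 15 it held 1 of each (2.33% and 1.37% of all genes called).

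No gene among the death ligands and effector cytokines was called by edgeR's quasi-likelihood test (9 tested, median log2 fold change -0.31). At an unadjusted p below 0.05 there were 2, and DESeq2 called 2 lower and limma-voom 1 lower. Tnf measured 9.84 and 21.0 CPM in Setd2-CD4 cre, against 35.4 and 38.9 CPM in wild type (adjusted p = 0.0567), and Lta measured 72.9 and 123 CPM in Setd2-CD4 cre, against 176 and 188 CPM in wild type (adjusted p = 0.0609). Fasl, the ligand by which T cells kill without granules, measured 27.7 and 22.7 CPM in Setd2-CD4 cre and 27.5 and 27.5 CPM in wild type (adjusted p = 0.631). Without Setd2-CD4 cre 24, 4 of 9 tested genes fell (30.2% of all genes called in that fit), and without Setd2-CD4 cre 22, 2 of 10 did (13.8%).

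**Figure D5:**
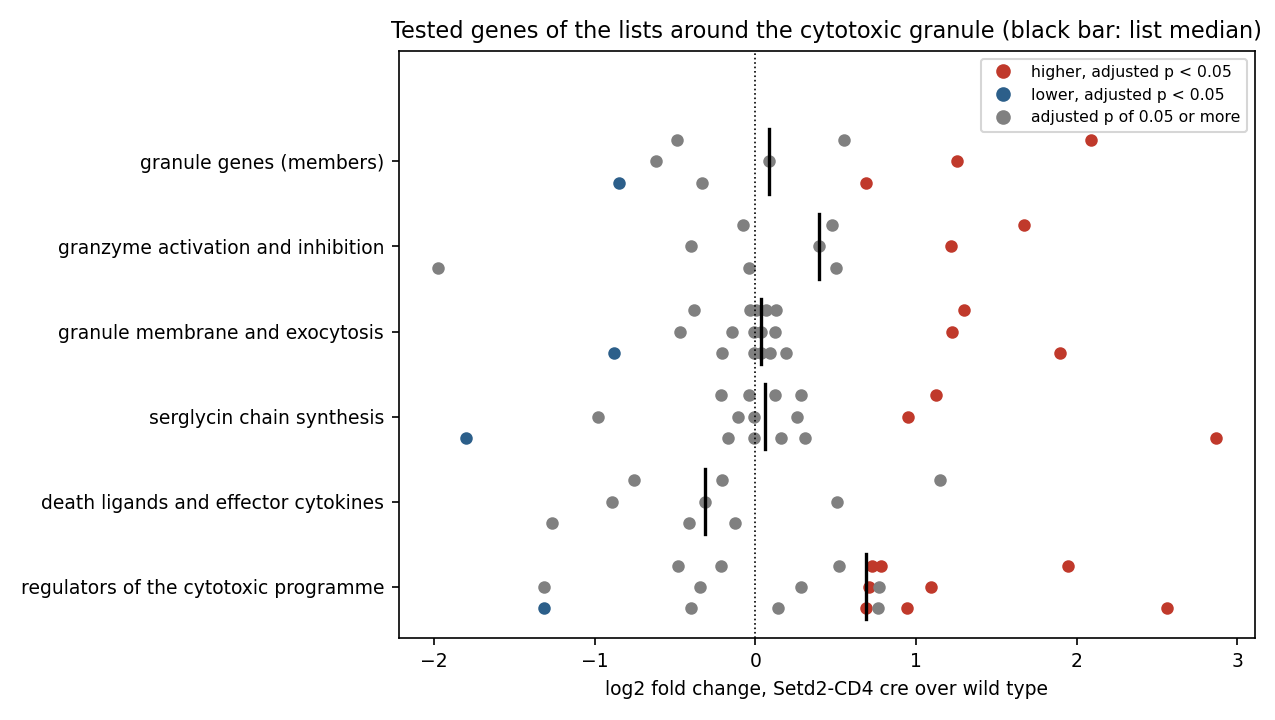
Fitted log2 fold change of Setd2-CD4 cre over wild type (horizontal axis) for each tested gene of 6 lists, spread vertically only for legibility, with the list median as a black bar. Red points are higher and blue points lower at an adjusted p below 0.05, and medians run from -0.31 for death ligands and effector cytokines to 0.69 for regulators.

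Regulators of the cytotoxic programme gave 8 rises and 1 fall among 19 tested (median log2 fold change 0.69). In that fit, 5.53% of all genes were higher and 4.59% lower. Eomes, the T-box factor that drives perforin expression in CD8 T cells, fell to 10.2 and 7.53 CPM in Setd2-CD4 cre, against 22.7 and 21.7 CPM in wild type (2.50-fold lower, adjusted p = 0.0205). It narrowly missed the threshold without wild type 13 (adjusted p = 0.0509) or 15 (0.0558). For the related Tbx21, the fitted log2 value of -0.40 was within the spread (adjusted p = 0.23). Zeb2, a repressor found in terminal effector cells, rose 3.85-fold, and Prdm1, the gene of Blimp-1, rose 2.13-fold (adjusted p = 0.0202 and 0.0204). For Prdm1 the call ended when wild type 13 (adjusted p = 0.0705) or 15 (0.126) was left out. Bcl6, a repressor that opposes Blimp-1, rose 5.92-fold to 66.5 and 41.8 CPM in Setd2-CD4 cre, against 9.93 and 8.32 CPM in wild type (adjusted p = 0.0106). Runx3, which supports cytotoxic genes, measured 313 and 214 CPM in Setd2-CD4 cre and 153 and 156 CPM in wild type (adjusted p = 0.0508). It passed as higher in DESeq2 (adjusted p = 0.00227) and did not pass with limma-voom (adjusted p = 0.057). Without wild type 13 or 15 the list held 2 rises and no fall (2.33% and 1.37% of all genes called).

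Markers of other cell types that make granule genes were read beside these results. The fit of all 4 libraries called 10.1% of all genes. The NK cell list summed to 21.4 and 16.3 CPM in Setd2-CD4 cre, against 9.68 and 9.86 CPM in wild type, for 10 genes in the table. Of its 6 tested genes 1 was called, the receptor gene Klre1 (3.01-fold higher, adjusted p = 0.044, and 0.204, 0.0914 and 0.0716 without wild type 13, wild type 15 or Setd2-CD4 cre 22). The defining NK gene Ncr1 had 8 and 3 counts in Setd2-CD4 cre and 0 and 0 in wild type. The CD8 genes Cd8a and Cd8b1 summed to 182 and 78.4 CPM in Setd2-CD4 cre and 125 and 183 CPM in wild type, so the groups overlapped, and edgeR called neither (0 at an unadjusted p below 0.05, 0 by DESeq2). The log2 fold change of Cd8a moved from -0.38 to -1.28 without Setd2-CD4 cre 22, and to 0.16 without Setd2-CD4 cre 24. Gamma-delta T cell markers summed to 42.5 and 62.7 CPM in Setd2-CD4 cre, against 20.3 and 20.1 CPM in wild type. Of the 5 tested, Tcrg-C1, Tcrg-C2 and Cd163l1 were higher (adjusted p = 0.035, 0.0388 and 0.0106), the first 2 of which share sequence and lost the call without wild type 15 (adjusted p = 0.0943 and 0.137). Trdc and Tcrg-C4, the others tested, were not called (log2 fold change 0.45 and -0.02, adjusted p = 0.374 and 0.976). With limma-voom, 1 of the 5 gamma-delta markers was called higher. The part of NK, CD8 and gamma-delta T cells in the rises of Gzma and Gzmc was not tested.

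Mast cell and basophil genes summed to 277 and 165 CPM in Setd2-CD4 cre, against 105 and 119 CPM in wild type, and nearly all of that was Kit (275 and 162 CPM in Setd2-CD4 cre, 105 and 118 CPM in wild type, edgeR adjusted p = 0.0538). edgeR called 0 of the 2 tested, both of which had an unadjusted p below 0.05, and DESeq2 called 1 of 6 higher. The protease genes of the list were at low counts. Mcpt8 had 10 and 12 counts in Setd2-CD4 cre and 2 and 4 in wild type. Mcpt4 had 7 and 5 in Setd2-CD4 cre and 0 and 0 in wild type. The groups did not overlap for Mcpt8, Mcpt4 or Cma1, nor for Mcpt1 and Mcpt2 outside the list, and overlapped for Cpa3 and Ms4a2. They did not overlap for 63.8% of all genes tested, which do not include Mcpt4, Cma1, Cpa3 or Ms4a2. Cpa3 had 1 and 11 counts in Setd2-CD4 cre and 6 and 1 in wild type, and Cma1 had 9 and 7 in Setd2-CD4 cre and 0 and 6 in wild type. Ms4a2, a chain of the IgE receptor, had 0 and 10 counts in Setd2-CD4 cre and 0 and 0 in wild type. Neutrophil markers summed to 2.54 and 5.62 CPM in Setd2-CD4 cre and 1.59 and 0.671 CPM in wild type, with Elane at 0 in all 4 libraries. The 1 tested gene, S100a9, had 29 and 64 counts in Setd2-CD4 cre and 17 and 4 counts in wild type. Its log2 fold change of 2.17 did not pass in edgeR (unadjusted p = 0.0144, adjusted p = 0.0801) and passed in DESeq2 (adjusted p = 0.0478). Of 5 tested dendritic cell markers, Ccl22 and Flt3 were lower and Zbtb46 higher (adjusted p = 0.0161, 0.0449 and 0.0217). That fit called 10.1% of all genes. Flt3 did not pass with any 1 library left out (adjusted p = 0.0507 to 0.275), nor Zbtb46 without wild type 15 (0.0929), and Xcr1 and Siglech had 0 counts throughout. Their summed level was 48.6 and 45.9 CPM in Setd2-CD4 cre and 82.3 and 66.7 CPM in wild type. edgeR called none of the 5 B cell markers (4 at an unadjusted p below 0.05, 0 by DESeq2), which summed to 35.6 and 24.4 CPM in Setd2-CD4 cre, against 15.6 and 13.9 CPM in wild type. Without Setd2-CD4 cre 24, 4 of the 5 were higher, where 30.2% of all genes were called. The part of these cell types in the granule gene results was not tested.

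The genes whose profiles over the 4 libraries lay nearest to those of 3 members were named by Euclidean distance between centred log2 CPM, out of 9750 genes with a mean of at least 5 CPM, with predicted and clone-named genes left out. For Gzma they were Cpe, Itgb5 and Il17a (distances 0.0272, 0.189 and 0.357). For Gzmb they were Trim8, Nfkb1 and Caprin1 (0.018 to 0.0248), and for Prf1 they were Apba3, Phldb3 and Ppp1r12a (0.0444 to 0.0473). Profiles were centred but not scaled, so nearness reflects the size of a change as well as its shape. With 4 libraries this is a description only. Cpe, which encodes carboxypeptidase E, measured 27.1 and 38.04 CPM in Setd2-CD4 cre, against 8.21 and 7.18 CPM in wild type.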

How the data were processed

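The deposited table gives, per the file headers, a count and an FPKM value per gene and library. The submitters' processing notes name Bowtie2, RSEM and the build GRCm38.p6 (mm10). Versions, strand setting and annotation were not given in the sources used here. The deposited counts are whole numbers and were used as they stand. The authors' FPKM values served to set levels of genes side by side. The 4 libraries were fitted in edgeR 4.0.16 (R 4.3.3): filterByExpr (minimum count 10, minimum total 15), trimmed mean of M values scaling (factors 0.959 and 1.00 for Setd2-CD4 cre, 1.02 and 1.02 for wild type), and a two-sided quasi-likelihood test of 2 against 2 libraries, with Benjamini-Hochberg adjustment over all 13279 genes and a threshold of 0.05. All adjusted p-values given in the text are from this test unless another tool is named. The standard error was the log2 fold change over the square root of F. An exact test of 2 against 2 cannot go below p = 0.333. Replicates differed by more than counting noise (chi-square per degree of freedom 28.5 in Setd2-CD4 cre, 9.33 in wild type). A limit of 3 counts covers counting error only.

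Members and lists were chosen with earlier results of these data known, from general knowledge of cytotoxic granules. Named genes are the 10 members, Setd2, up to 4 called genes of each list by adjusted p, defining markers, and 3 nearest profiles each for Gzma, Gzmb and Prf1. Uncalled list genes and Mcpt1 were named after their values were seen. One list symbol was matched by an older name. Shared sequence was counted in GENCODE M21 transcripts over 50-base words. Alternatives were other scalings, filters, a robust fit, DESeq2 1.42.0, limma 3.58.1 (voom, or on log2 FPKM with 1 or 0.1 added), leaving out each library (the lone library of a group is then assumed to vary like the others), and testing against a fold of 1.5. Figures were drawn with matplotlib 3.10.9.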

Additional observations from a re-analysis of the deposited data

How the results depend on the processing

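No paired analysis was possible because the library numbers 13, 15, 22 and 24 are not shared between the groups. Of the 10 genes, 3 higher and 1 lower passed. The lower count was 2 when libraries were scaled by their totals, without a filter on low counts, with a robust fit and with DESeq2, each of which added Ctsw. Against a minimum fold of 1.5, 1 gene was higher and 0 lower, as the null of that test is wider. With 1 library left out the members gave 1 to 3 higher and 0 to 3 lower. Over all genes, 734 were higher and 610 lower. These counts were 1261 and 1088 without a filter and 85 and 35 against a minimum fold of 1.5, and they ran from 120 to 2122 higher and from 70 to 2002 lower with 1 library left out. limma gave 445 higher on log2(FPKM + 1) and 457 on log2(FPKM + 0.1). The share of calls that were higher was 54.6%, and 46.6% when libraries were scaled by their totals. The cause of these moves was not tested. Gzma was called under all 15 alternatives (log2 fold change 1.81 to 2.33), and Gzmc, Nkg7 and Srgn under 12, 12 and 10 of 15. Against the minimum fold their adjusted p was 0.157, 0.198 and 0.623, and that of Srgn was 0.0664 and 0.0639 with limma on FPKM. Over the 4 fits with 1 library left out, the log2 fold change ran from -0.021 (without Setd2-CD4 cre 22) to 0.19 for Gzmb, from -1.41 to 0.28 (without Setd2-CD4 cre 22) for Gzmk, and from -1.21 to 1.07 (without wild type 13) for Gzmm. The 3 named values had the opposite sign to the full fit and were not called. The levels of Srgn, Ctsw and Nkg7 in wild type were 267, 193 and 75.8 FPKM with GENCODE lengths, against 119, 194 and 41.7 as deposited. Gzmm and Lamp3 stood under 30 counts, at 2 libraries a group, and Gzmm also differed between the wild-type replicates (27 and 5 counts). What limited their results was not tested.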
